A study of Mus musculus with 12 samples.

Results

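The knockdown of Gcn5 was followed here at day 2 of factor induction in mouse embryonic fibroblasts, by setting the 2 libraries treated with an siRNA against Gcn5 and with doxycycline (siGcn5) beside the 2 libraries treated with a control siRNA and with doxycycline (siControl). These 4 libraries, of 12 in the series, were grouped by their labels, and all genes were compared on log2(RPKM + 1), where RPKM is the read count of a gene scaled to transcript length and to library size. Gcn5 is the protein made from the gene Kat2a. The labels name the cells secondary 1B MEFs, fibroblasts in which doxycycline (dox) turns on introduced reprogramming factors, so both groups carry the factors and both had them switched on for 2 days. The 4 libraries with the same siRNAs and no dox, and the 2 libraries with an siRNA against Myc (siMyc) and dox, are used beside them. The siRNA was given once, before dox. For the libraries without dox the labels give no time between siRNA and harvest. Dox and time since the siRNA therefore cannot be told apart where libraries with and without dox are compared. The labels do not say whether these libraries had a pool of siRNAs or a single one. Nor do they say whether the 2 replicates of a group came from separate cultures. A p-value here therefore reflects how far replicate libraries differ, pooled over all 12 libraries, and that spread may be technical.

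Gcn5 transfers acetyl groups to lysines of histone tails and is the enzyme of 2 coactivator complexes, SAGA and ATAC, which help transcription start at many promoters. Kat2b (PCAF) is its close paralog and can take the same place in both complexes. Fibroblasts that receive reprogramming factors are known to speed up their cell cycle, raise RNA processing and ribosome production and shut down mesenchymal genes before pluripotency genes appear. The comparison asks which of these programs stand differently when Gcn5 is depleted.

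Reads assigned to genes, recovered from the steps between RPKM values, came to 101.6 M and 92.5 M in the siGcn5 libraries and to 133 M and 97.3 M in the siControl libraries, within a range of 65.5 M to 188 M over the 12 libraries. Replicates of siGcn5 with dox were the least alike of the 6 groups, with a Spearman correlation of 0.990 across genes, against 0.996 for siControl with dox. Replicate 1 of siGcn5 stood further from siControl than replicate 2 did, with a median absolute log2 difference per gene of 0.36 against 0.26. Of 15 fibroblast markers only Lum stayed under 1 RPKM in all 4 libraries. In what follows the value of replicate 1 precedes that of replicate 2, all log2 changes are siGcn5 minus siControl on the log2(RPKM + 1) scale unless another pair is named, adjusted p-values are from limma with Benjamini-Hochberg adjustment over all 13175 genes tested, and a gene is called when its adjusted p is under 0.05.

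The targeted gene was low in the libraries labelled for it. Kat2a stood at 6.27 and 9.11 RPKM in the siGcn5 libraries, against 55.7 and 53.1 RPKM in the siControl libraries. Both siGcn5 libraries lay far below both siControl libraries, and replicate 1, which stood further from siControl over all genes, also held less Kat2a. The log2 change was −2.69 (SE 0.15, adjusted p = 2.9e-06). Without dox Kat2a was lower still, at 1.33 and 1.97 RPKM in siGcn5, against 23.03 and 20.7 RPKM in siControl. Kat2b, the paralog, rose slightly, at 4.01 and 3.49 RPKM in siGcn5 and 2.63 and 2.82 RPKM in siControl (log2 0.35, SE 0.08, adjusted p = 0.0044). Kat2b was also higher in siGcn5 without dox (log2 0.61, adjusted p = 0.00016).

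**Figure D1:**
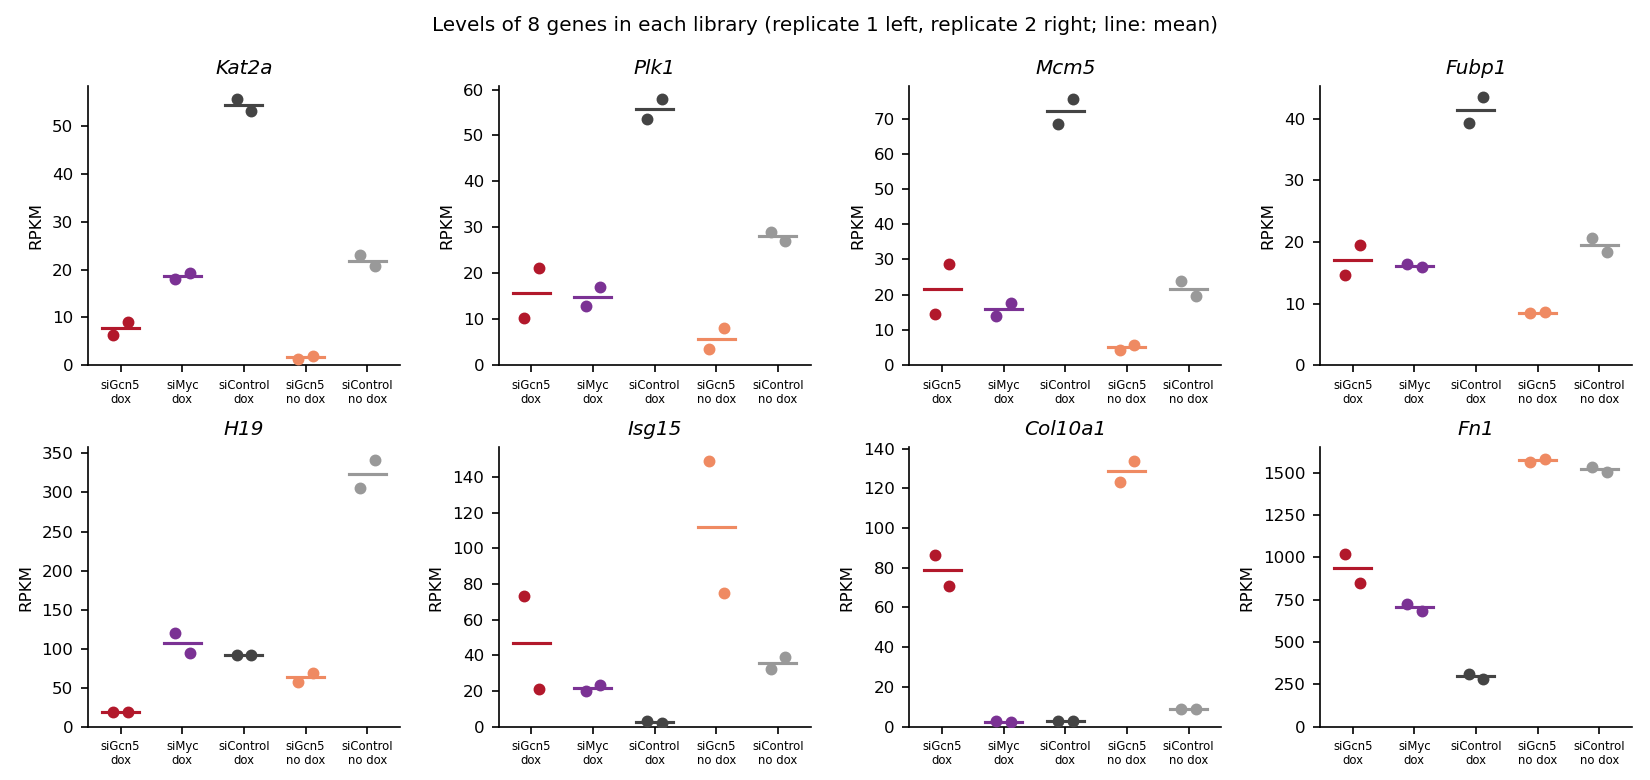
RPKM of 8 genes in each library of 5 groups, with replicate 1 on the left, replicate 2 on the right and a line at the mean; each axis starts at 0. With dox, Kat2a, Plk1, Mcm5, Fubp1 and H19 are lower in both siGcn5 libraries than in both siControl libraries, and Isg15, Col10a1 and Fn1 are higher, with the 2 siGcn5 libraries far apart for Isg15.

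Calls among the other SAGA subunits went both ways, and those in ATAC were all falls. Of the 18 genes of the SAGA core and acetyltransferase module, Kat2a included, 3 rose and 6 fell and 9 were not called, where 56.3% of all genes tested were called, 31.4% higher and 24.9% lower. The list's median log2 change was −0.041, against a median of 0.051 over all genes tested. Trrap, the large scaffold subunit that contacts activators, rose most, at 13.9 and 13.9 RPKM in siGcn5 and 8.45 and 8.59 RPKM in siControl (log2 0.65, adjusted p = 8.7e-05). Beside Kat2a the falls were in Sf3b3, at 51.1 and 62.5 RPKM in siGcn5 and 86.96 and 92.7 RPKM in siControl (log2 −0.66), Taf9 (log2 −0.65), Taf5l (log2 −0.48), Taf6l (log2 −0.44) and Taf10 (log2 −0.37). The third rise, Fam48a (Supt20, log2 0.31), and the fall of Taf10 lost their calls without siGcn5 replicate 1, at adjusted p = 0.14 and 0.31, and Fam48a also without siControl replicate 2 (0.084) and Taf10 without siControl replicate 1 (0.19). With the compared groups fitted alone both calls ended too (0.065 and 0.11), Fam48a also with median-ratio scaling (0.059) and Taf10 with no filter (0.066). Uncalled were Tada1 (log2 −0.028), Tada2b (0.057), Tada3 (−0.17), Ccdc101 (Sgf29, 0.061), Supt3h (0.15), Supt7l (0.086), Taf9b (0.11), Taf12 (−0.053) and Sf3b5 (−0.28).

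In the deubiquitinase module of SAGA, 1 of 7 tested genes rose (Atxn7l1, log2 0.30) and 2 fell (Usp22, the catalytic subunit, log2 −0.21, and Atxn7l2, log2 −0.38). Each of these 3 calls ended without 1 library: Atxn7l1 without siControl replicate 2 (adjusted p = 0.085) or siGcn5 replicate 1 (0.089), Usp22 without either siControl library (0.10 and 0.11) or siGcn5 replicate 1 (0.28), and Atxn7l2 without siControl replicate 1 (0.059). All 3 also ended with the compared groups fitted alone (0.072, 0.14 and 0.053), and Atxn7l1 with quantile normalization (0.062). Eny2 (log2 0.054), Atxn7 (0.098), Atxn7l3 (0.081) and Usp27x (0.020) were not called. Of 8 ATAC genes none rose and 4 fell, Pole3 (log2 −0.67), Wdr5 (−0.49), Tada2a (−0.35) and Yeats2 (−0.34), and the call of Tada2a ended without siGcn5 replicate 1 (adjusted p = 0.062). Csrp2bp (log2 −0.18), Zzz3 (−0.046), Mbip (0.12) and Dr1 (0.096) were not called. Among 24 other histone acetyltransferases and deacetylases 5 rose and 8 fell (median 0.066), and the falls were 5 without siControl replicate 1 and 5 without siGcn5 replicate 1. Hat1, which acetylates newly made histone H4, was at 22.5 and 31.1 RPKM in siGcn5 and 51.8 and 58.98 RPKM in siControl (log2 −1.03, adjusted p = 0.00016), and Hdac11 was at 6.00 and 5.02 RPKM and 2.42 and 1.97 RPKM in the same groups (log2 1.02). Sirt7 rose (log2 0.72) and Hdac10 fell (log2 −0.72). The other rises, in Sirt2 (log2 0.48), Ncoa1 (0.35) and Hdac4 (0.28), were named after their values were seen.

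Over the transcriptome, 7412 of 13175 genes were called, which is 56.3%, with 4136 higher in siGcn5 (31.4%) and 3276 lower (24.9%). A change of at least 1 log2 unit was reached by 545 called genes that rose and 368 that fell. Rises made up 55.8% of the calls as deposited, 43.8% after median-ratio scaling and 49.4% after quantile normalization, so the balance of rises and falls rests on the scaling. The median over all genes was 0.051 as deposited, −0.044 after median-ratio scaling and −0.0046 after quantile normalization, so its sign rests on the scaling too. Median-ratio scaling moved it slightly further in the comparison without dox, from 0.11 to 0.0043, and in that of siGcn5 with siMyc, from 0.094 to −0.025.

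**Figure D2:**
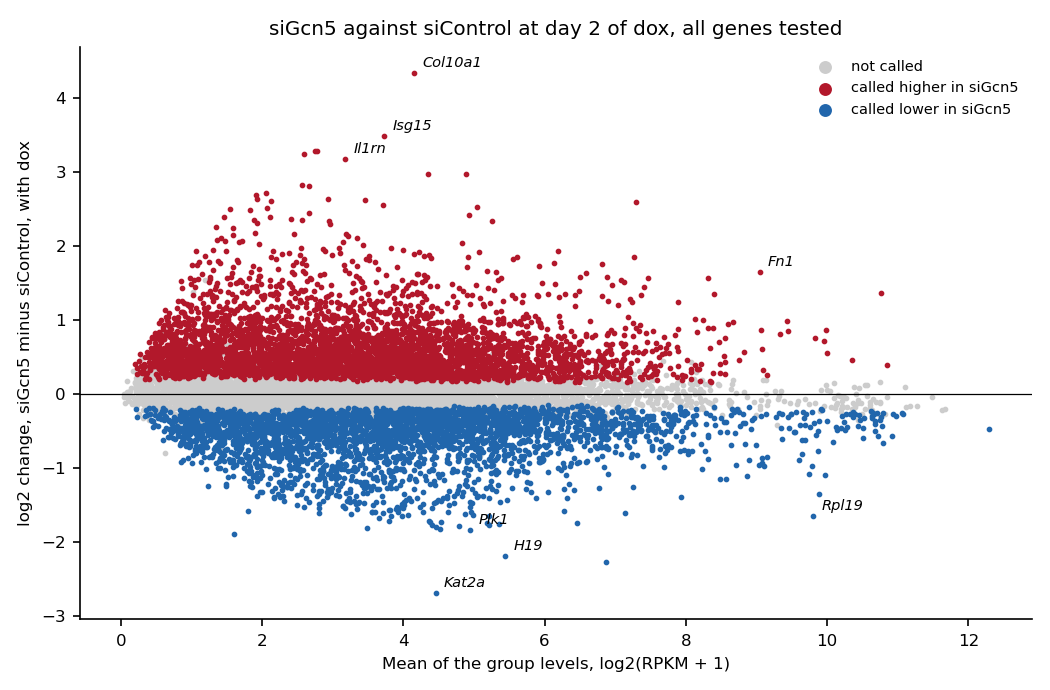
Each point is 1 of the 13175 genes tested: the x axis is the mean of the 2 group levels on the log2(RPKM + 1) scale, the y axis the log2 change (siGcn5 minus siControl, with dox), and colour marks the calls. Kat2a lies lowest at −2.69, Col10a1 highest at 4.34, and Rpl19 and Fn1 stand out among abundant genes.

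The largest rise was in Col10a1, a collagen of hypertrophic cartilage, at 86.5 and 71.01 RPKM in siGcn5 and 2.83 and 3.03 RPKM in siControl (log2 4.34, SE 0.10, adjusted p = 7.3e-09). Both siGcn5 libraries stood far above both siControl libraries, and the same held without dox (123 and 134 RPKM in siGcn5, 8.85 and 8.91 RPKM in siControl). Il1rn, the interleukin-1 receptor antagonist, had 29.6 and 22.8 RPKM in siGcn5, against 1.77 and 2.23 RPKM in siControl (log2 3.17). C1qtnf3, a secreted protein of the C1q and TNF family, had 93.8 and 70.8 RPKM, against 10.04 and 8.99 RPKM (log2 2.97). The other rises of this size were Lgals3bp, a secreted glycoprotein that binds galectins (log2 2.97), the arginase Arg1 (2.82), the homeobox factor Msx2 (2.81), the collagenase Mmp13 (2.72), the aldo-keto reductase Akr1c14 (2.69), the smooth muscle myosin Myh11 (2.63), C130074G19Rik (2.63) and Rgs4, which dampens G protein signalling (2.62), beside Isg15 and Usp18 of the interferon response. Prl2c3 and Prl2c4, near-identical prolactin family genes, were at log2 3.28 and 3.29. Their reads may have been split or shared in counting, so the level of either one is uncertain.

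Kat2a itself was the largest fall. Among the other falls was the maternally expressed imprinted RNA H19, at 19.2 and 19.4 RPKM in siGcn5 and 91.6 and 92.5 RPKM in siControl (log2 −2.20, SE 0.12, adjusted p = 2.9e-06), with Mir675, which lies within H19 and whose value (log2 −2.27) is not independent of it. The 2 siGcn5 libraries were almost equal for H19, as were the 2 siControl libraries. Mir92-1, of the miR-17 to miR-92 cluster, was at 0.615 and 0.540 RPKM in siGcn5 and 4.88 and 4.88 RPKM in siControl (log2 −1.90); in total RNA libraries such a value counts fragments of the precursor transcript, not mature miRNA. The other 11 of the 15 largest falls, 7 of them members of the DNA replication and mitosis list, were Plk1, Cenpa, Spc24, Uhrf1, Tk1, Bub1b, Ccnb1, Mcm5, Ube2c, Hmgb2 and Cdca3.

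Genes of DNA replication and mitosis were lower in siGcn5 almost without exception. Of 53 tested members 52 fell and none rose, and the median log2 change was −1.41. The exception was E2f1 (log2 0.18, not called), named after its value was seen. Plk1, the polo kinase that drives entry into mitosis, had 10.4 and 21.1 RPKM in siGcn5, against 53.6 and 58.04 RPKM in siControl (log2 −1.84, SE 0.33, adjusted p = 0.001). Cenpa, the histone H3 variant of centromeres, had 6.84 and 16.5 RPKM, against 38.9 and 42.1 RPKM (log2 −1.83, SE 0.30). Uhrf1, needed to copy DNA methylation at the replication fork, had 7.72 and 14.4 RPKM, against 41.2 and 37.8 RPKM (log2 −1.80, SE 0.25). For each of these genes both siGcn5 libraries were below both siControl libraries, and replicate 1 was the lower of the siGcn5 pair. The median of the list was −1.72 in replicate 1 and −1.06 in replicate 2. Bub1b of the spindle checkpoint (log2 −1.78), cyclin B1 (Ccnb1, −1.77), the replicative helicase subunit Mcm5 (−1.76), the kinetochore protein Spc24 (−1.82), Ube2c, the ubiquitin-conjugating enzyme of the anaphase-promoting complex (−1.74), Hmgb2 (−1.74) and Cdca3 (−1.73) were close behind. Some genes named in this paragraph are among the largest falls but are not members of the list. In bulk RNA, fewer cells of a kind and less RNA per cell cannot be told apart, so a smaller share of dividing cells and a lower level in each cell give the same value.

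The same list was also low without dox, where 49 of 53 members fell and none rose (median −1.51), against a background of 57.3% of all genes called in that comparison, 36.9% higher and 20.4% lower. Plk1 was at 3.48 and 8.06 RPKM in siGcn5 and 28.9 and 27.1 RPKM in siControl without dox, and Mcm5 at 4.41 and 5.76 RPKM and 23.8 and 19.6 RPKM. In siControl the level of Mcm5 was higher with dox than without, and with dox the siGcn5 libraries (14.6 and 28.8 RPKM) lay around the level of siControl without dox. The size of the siGcn5 effect on the list differed between dox and no dox for 1 member, E2f2 (interaction log2 −0.47, adjusted p = 0.01), which was named after its value was seen; of all genes 25.9% were called for the interaction. That call ended with a pseudocount of 0.1, a mean of at least 5 RPKM or voom, and the members called were 3 higher and 1 lower without siGcn5 replicate 1 with dox and 7 lower without its replicate 2.

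Promoter windows of 3 of these genes, and below of 2 interferon genes, are printed to show motifs that some members of each list hold. They run from 250 bases before to 50 after each gene's start and come from RefSeq on GRCm38.p6. Every motif was searched on both strands, and a match is only a run of letters. Capitals mark only the motif named for each window. Other matches, such as CCAAT in Mcm5 and Oas1a, are left in small letters. Of 43 list members with a window, 30 (69.8%) held the CCAAT box, CCAAT, against 41.1% of the windows of all 27025 RefSeq genes. A further motif of replication genes, the E2F site TTTNNCGC, was held by 15 of the 43 (34.9%), against 5.93% of all genes, and the CHR element TTTGAA by 17 (39.5%), against 20.2%. These shares of all RefSeq genes include genes that fibroblasts do not express, so they are no background for genes drawn from expressed ones. The windows of Plk1 (chr7:122159185-122159484, plus strand) and Ccnb1 (chr13:100786437-100786736, minus strand) show CCAAT in capitals, and that of Mcm5 (chr8:75109259-75109558, plus strand) shows 2 overlapping matches to the E2F site, 1 on each strand.
Plk1: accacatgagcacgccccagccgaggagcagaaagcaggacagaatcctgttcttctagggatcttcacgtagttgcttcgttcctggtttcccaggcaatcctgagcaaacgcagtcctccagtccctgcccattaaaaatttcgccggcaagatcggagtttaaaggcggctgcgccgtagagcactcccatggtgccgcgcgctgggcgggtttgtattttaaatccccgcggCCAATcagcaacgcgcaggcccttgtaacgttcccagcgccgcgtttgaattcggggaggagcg
Ccnb1: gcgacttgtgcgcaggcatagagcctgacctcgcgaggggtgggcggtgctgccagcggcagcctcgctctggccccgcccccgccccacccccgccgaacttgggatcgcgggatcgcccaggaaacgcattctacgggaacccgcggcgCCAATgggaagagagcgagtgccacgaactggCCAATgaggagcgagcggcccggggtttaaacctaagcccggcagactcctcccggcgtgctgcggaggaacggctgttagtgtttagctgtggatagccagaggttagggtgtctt
Mcm5: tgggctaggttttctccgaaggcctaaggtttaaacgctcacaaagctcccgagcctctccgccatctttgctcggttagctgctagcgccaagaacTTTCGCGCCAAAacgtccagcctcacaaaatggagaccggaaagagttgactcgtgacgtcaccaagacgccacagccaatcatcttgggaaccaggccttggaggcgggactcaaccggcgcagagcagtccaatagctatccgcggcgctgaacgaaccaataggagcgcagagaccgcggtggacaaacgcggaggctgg

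Genes that make DNA precursors were mostly lower too. In the list for nucleotide and one-carbon synthesis 27 of 37 members fell and 3 rose (median −0.52). Thymidine kinase Tk1 had 10.2 and 18.03 RPKM in siGcn5, against 46.4 and 52.9 RPKM in siControl (log2 −1.79, SE 0.22, adjusted p = 0.00015). Thymidylate synthase (Tyms, log2 −1.20) and Shmt1, which feeds one-carbon units from serine (−1.05), fell as well, and the call of Shmt1 ended without siGcn5 replicate 1 (adjusted p = 0.068). Among the rises, picked out after their values were seen, were the CTP synthases Ctps (log2 0.40) and Ctps2 (0.40).

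Of 31 p53 targets and cell cycle inhibitors 15 rose and 4 fell (median 0.27). Cdkn1c (p57), an inhibitor of cyclin-dependent kinases, had 10.8 and 7.35 RPKM in siGcn5, against 2.07 and 1.31 RPKM in siControl (log2 1.90, adjusted p = 6.5e-05), and Cdkn2b (p15) had 34.8 and 30.3 RPKM, against 11.4 and 9.76 RPKM (log2 1.53). Pmaip1 (Noxa), which promotes apoptosis, was at log2 0.95 and Gadd45b at 0.87. Among the 4 falls, named after their values were seen, were the inhibitors Cdkn2c (log2 −0.79) and Cdkn2a (−0.37), with Ddit4 (−0.40) and Perp (−0.42). The 4 falls were 2, 2 and 1 without siControl replicate 1, siControl replicate 2 and siGcn5 replicate 1, and 7 with median-ratio scaling.

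Interferon response genes were higher in siGcn5. Of 35 tested members 28 rose and none fell, and the median log2 change was 1.54. Isg15, a ubiquitin-like protein attached to other proteins in the antiviral state, had 73.3 and 20.98 RPKM in siGcn5, against 3.11 and 2.16 RPKM in siControl (log2 3.49, SE 0.48, adjusted p = 0.00025). Usp18, which removes Isg15 again, had 30.3 and 8.27 RPKM, against 0.730 and 0.882 RPKM (log2 3.24, SE 0.47). Oas1a, which makes the second messenger that activates RNase L, had 11.8 and 3.95 RPKM, against 0.466 and 0.392 RPKM (log2 2.48, SE 0.39), and Irf7, the factor that amplifies type I interferon, 14.2 and 4.71 RPKM, against 1.03 and 0.553 RPKM (log2 2.39). Both siGcn5 libraries were above both siControl libraries in each case, but the 2 siGcn5 libraries stood far apart, replicate 1 the higher in each. The list's median was 2.17 in replicate 1 and 0.99 in replicate 2, and the number of rises was 22 without replicate 1 and 32 without replicate 2.

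The rise was also present without dox, where 29 of 35 members rose and none fell (median 1.35). The rises were 15 without siGcn5 replicate 1 without dox, and 19 and 20 without siControl replicates 1 and 2 without dox. Isg15 was at 149 and 74.8 RPKM in siGcn5 and 32.5 and 39.04 RPKM in siControl. With dox the siControl libraries held little Isg15, so the siGcn5 libraries with dox straddled the level of siControl without dox. No member was called for the interaction, by limma's adjusted test; 5 had an unadjusted p under 0.05, and voom called 1 lower. Without siGcn5 replicate 2 with dox 10 were called higher, and without replicate 1 3 were called lower. The core of an interferon response element was searched as GAAA, any 2 bases and GAAA again, which 3.99% of all RefSeq promoter windows contain. Windows of Isg15 (chr4:156200769-156201068, minus strand), with 3 overlapping matches that begin 78, 72 and 66 bases before the start, and of Oas1a (chr5:120907476-120907775, minus strand), with 2 that begin 20 and 14 bases before it, are shown with the matches in capitals. Too few members of the interferon list had a window (26 of 35) to give a share for the list.
Isg15: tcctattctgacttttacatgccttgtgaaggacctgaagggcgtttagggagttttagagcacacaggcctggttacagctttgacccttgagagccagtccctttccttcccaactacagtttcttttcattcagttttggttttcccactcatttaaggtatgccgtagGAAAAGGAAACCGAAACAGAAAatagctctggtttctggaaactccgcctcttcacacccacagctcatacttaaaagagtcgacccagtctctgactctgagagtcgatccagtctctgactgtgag
Oas1a: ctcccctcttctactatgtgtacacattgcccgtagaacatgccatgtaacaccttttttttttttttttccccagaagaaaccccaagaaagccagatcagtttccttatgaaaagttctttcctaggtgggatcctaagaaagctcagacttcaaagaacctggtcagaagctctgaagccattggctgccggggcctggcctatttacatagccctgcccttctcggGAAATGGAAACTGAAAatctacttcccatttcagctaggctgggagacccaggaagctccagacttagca

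Inflammatory genes followed the same direction. Of 22 tested cytokine and chemokine genes 15 rose and 1 fell (median 0.96), the fall being Ptgs1 (log2 −0.63, named after its value was seen). Beside Il1rn, Ccl20 had 6.21 and 3.62 RPKM in siGcn5, against 0.740 and 0.564 RPKM in siControl (log2 1.81), and Ccl2, which attracts monocytes, had 85.2 and 53.7 RPKM, against 23.6 and 18.8 RPKM (log2 1.64, adjusted p = 0.00051). Ccl8 was at log2 1.78. Without dox 5 members rose and 6 fell (median 0.11; 3 and 3 without siControl replicate 2 or siGcn5 replicate 1 of that comparison), and Ccl2 had 73.2 and 56.8 RPKM in siGcn5 and 66.4 and 57.9 RPKM in siControl, with an interaction of log2 1.58 (adjusted p = 0.013).

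**Figure D3:**
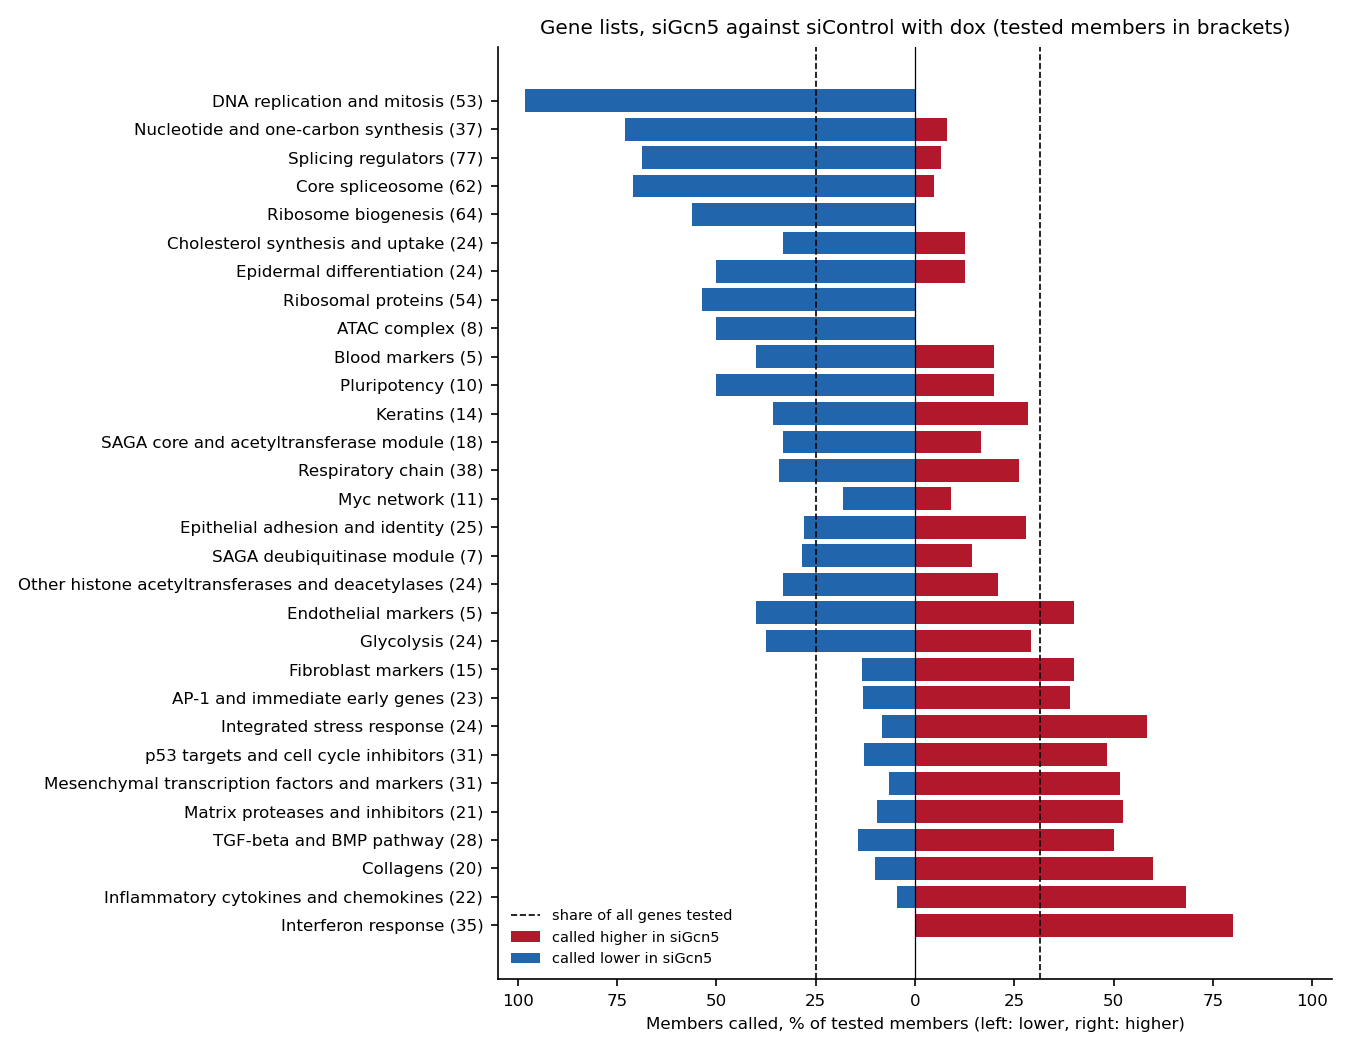
Share of the tested members of each gene list called higher (right) or lower (left) in siGcn5 with dox, for lists with at least 5 tested members, ordered by median log2 change; dashed lines mark the shares of all genes tested, 31.4% higher and 24.9% lower. DNA replication and mitosis reaches 52 of 53 on the left and interferon response 28 of 35 on the right, while in the SAGA core list 3 of 18 are on the right and 6 of 18 on the left.

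Regulators and parts of the splicing machinery were lower in siGcn5 with dox. Of 77 splicing regulators 53 fell and 5 rose (median −0.42), and of 62 core spliceosome genes 44 fell and 3 rose (median −0.36). Fubp1, which binds single-stranded DNA and RNA and regulates splicing, had 14.7 and 19.6 RPKM in siGcn5, against 39.3 and 43.5 RPKM in siControl (log2 −1.24, SE 0.12, adjusted p = 4.1e-05). Hnrnpd had 14.8 and 20.1 RPKM, against 32.6 and 39.4 RPKM (log2 −1.01). Both siGcn5 libraries were below both siControl libraries for these genes. The muscleblind genes went the other way, with Mbnl2 at 54.7 and 46.4 RPKM in siGcn5 and 25.5 and 24.9 RPKM in siControl (log2 0.97); Mbnl1 (log2 0.36), Rbfox2 (0.45), Srpk2 (0.43) and Zcchc24 (0.26), named after their values were seen, were the other rises. Mbnl proteins are known to favour differentiated-cell splicing patterns.

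Among core spliceosome genes, the Lsm proteins that bind U6 RNA led: Lsm2 had 22.4 and 29.8 RPKM in siGcn5, against 54.2 and 55.97 RPKM in siControl (log2 −1.06), and Lsm5 (log2 −1.02) and Lsm3 (−0.88) followed. Snrpa1, of the U2 particle, had 78.7 and 87.2 RPKM, against 149 and 150.3 RPKM (log2 −0.85, SE 0.08, adjusted p = 3.7e-05). The 3 rises were Snrnp27 (log2 0.34), Prpf6 (0.29) and Bud31 (0.22), named after their values were seen. Without dox the splicing regulators still leaned to falls, 31 against 12 rises (median −0.16), while the core spliceosome had 18 rises and 10 falls (median 0.031), a split that turned to 8 and 18 with median-ratio scaling. The median over all genes without dox moved with that scaling, as given above. The interaction was called lower with dox for 13 of 77 splicing regulators and higher for 2 (median −0.23), so the lower calls were near the 14.5% of all genes. For 30 of the 62 core spliceosome genes the effect with dox was the lower one by the interaction and for none the higher one (median −0.35), against 25.9% of all genes called for the interaction, 11.4% higher and 14.5% lower. That count was 18 after median-ratio scaling and 15 after quantile normalization, and it was 12 and 14 without siControl replicates 2 and 1 without dox, 15 without siControl replicate 2 with dox, 14 and 19 without siGcn5 replicates 1 and 2 without dox and 15 without siGcn5 replicate 1 with dox.

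Genes of ribosome production were lower by a smaller margin. Of 64 genes of ribosome biogenesis 36 fell and none rose (median −0.34), and the falls numbered 16 without siGcn5 replicate 1 and 17 without siControl replicate 2. Ubtf, the upstream binding factor of RNA polymerase I, had 23.1 and 30.2 RPKM in siGcn5, against 48.9 and 50.2 RPKM in siControl (log2 −0.88, SE 0.10, adjusted p = 9.8e-05), and the nucleolar protein Lyar had 47.1 and 72.5 RPKM, against 104 and 121 RPKM (log2 −0.93). Nucleolin (Ncl, log2 −0.77) and the pseudouridine synthase Dkc1 (−0.71) lost their calls without siControl replicate 2 (adjusted p = 0.12 and 0.094) or siGcn5 replicate 1 (0.14 and 0.10). Without dox 21 ribosome biogenesis genes rose and 5 fell (median 0.13), counts that were 11 and 9 after median-ratio scaling, where the list's median was −0.0078. The rises were 14 without siControl replicate 2 and 12 without siGcn5 replicate 1 of the libraries without dox. The interaction was lower with dox for 32 of 64 and higher for none (median −0.48). The 32 were 17 and 15 under the other 2 scalings, 20 with no filter, 13 and 10 without siControl replicates 1 and 2 and 10 and 19 without siGcn5 replicates 1 and 2 of the libraries without dox, 10 without siControl replicate 2 with dox and 9 without siGcn5 replicate 1 with dox. The falls without dox, Lyar (log2 −0.71), Taf1d (−0.55), Nop56 (−0.46), Ubtf (−0.43) and Rrp1b (−0.31), were picked out after their values were seen. Of 54 ribosomal protein genes 29 fell and none rose (median −0.26). For the interaction none of the 54 ribosomal protein genes was called (median −0.21), and 9 had an unadjusted p under 0.05 by limma. The falls of siGcn5 against siControl with dox numbered 18 with the compared groups fitted alone and 19 with no filter. With quantile normalization 14 fell and 3 rose (median −0.07). Leaving out either siControl library or siGcn5 replicate 1 also left fewer falls. Rpl19 stood out with 367 and 664 RPKM in siGcn5, against 1554 and 1546 RPKM in siControl (log2 −1.65), and Rpl3 (−1.10), Rpl10a (−0.97) and Rpl5 (−0.87) followed; ribosomal protein genes have many near-identical pseudogene copies, so their counts are uncertain.

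Mesenchymal and matrix genes were higher in siGcn5 with dox. Of 20 collagen genes 12 rose and 2 fell (median 0.63), of 31 mesenchymal factors and markers 16 rose and 2 fell (median 0.28), and of 21 matrix proteases and inhibitors 11 rose and 2 fell (median 0.34). Fibronectin (Fn1) had 1020.1 and 849 RPKM in siGcn5, against 311 and 282 RPKM in siControl (log2 1.65, SE 0.10, adjusted p = 3.1e-06). Periostin (Postn), a matrix protein, had 64.9 and 49.1 RPKM, against 12.9 and 12.98 RPKM (log2 2.04, SE 0.18), and Col5a2, of fibrillar collagen V, 636 and 457 RPKM, against 199 and 165 RPKM (log2 1.57). In each case both siGcn5 libraries stood above both siControl libraries. Tgfbi (log2 2.01), Mfap5 (1.62), Col12a1 (1.73), Col18a1 (1.34) and Col11a1 (1.23) were the other leading members, with the proteases Adamts1 (1.87), Plau, the urokinase activator of plasminogen (1.29), and Adamts5 (1.19) beside Mmp13. The falls, named after their values were seen, were Dcn (log2 −0.74) and S100a4 (−0.31), Col6a3 (−0.77) and Col15a1 (−0.33), and Adamts2 (−0.49) and Timp2 (−0.41).

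Without dox the same lists leaned the other way, and the difference was tested with the interaction. Collagens then had 3 rises and 11 falls (median −0.34), mesenchymal genes 3 and 15 (median −0.32), and matrix proteases 4 and 10 (median −0.22), and these splits kept their direction under both other scalings. The rises without dox were in Col8a2 (log2 1.38), Col11a1 (0.45) and Col12a1 (0.40), in Tgfbi (1.52), Mfap5 (0.40) and Twist1 (0.33), and in 4 proteases or inhibitors, Adamts1 (1.16), Adamts4 (0.52), Mmp11 (0.53) and Mmp13 (2.78), all picked out after their values were seen. The interaction was called higher with dox for 17 of 20 collagens (median 1.30), 22 of 31 mesenchymal genes (0.96) and 15 of 21 matrix proteases (0.82), and lower for none. Without dox Fn1 had 1565 and 1583 RPKM in siGcn5 and 1534 and 1503 RPKM in siControl, so the groups were close without dox and apart with it (interaction log2 1.59, adjusted p = 0.00034). Postn had 133 and 164 RPKM in siGcn5 and 127 and 175 RPKM in siControl without dox (interaction log2 2.05, adjusted p = 0.002). With dox the siGcn5 libraries stayed below the level of either siRNA without dox for both genes.

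**Figure D4:**
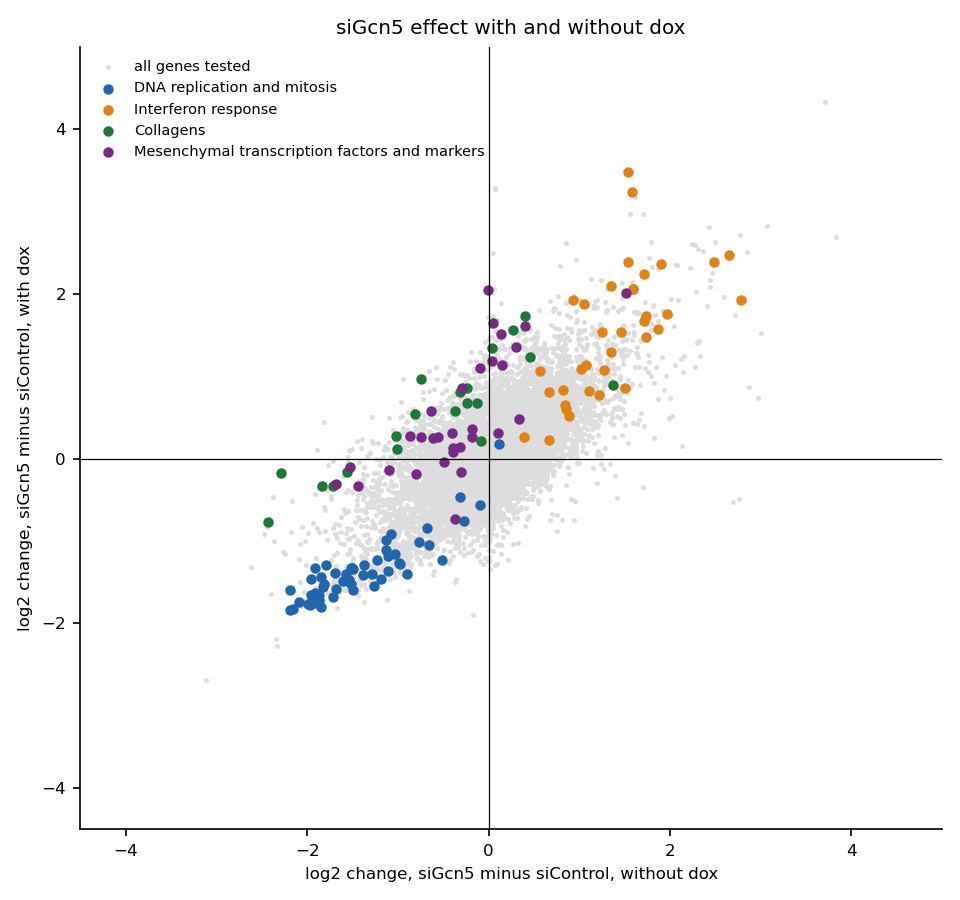
Each point is a gene tested: the x axis is the log2 change of siGcn5 against siControl without dox, the y axis the same change with dox, on the log2(RPKM + 1) scale, and 4 lists are coloured. DNA replication and mitosis lies low on both axes and interferon response high on both, while collagens and mesenchymal genes lie mostly above 0 with dox and more often below 0 without it.

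In signalling by TGF-beta and BMP, which controls matrix production, 14 of 28 genes rose and 4 fell (median 0.36), with 9 rises without siGcn5 replicate 1. The inhibitory factor Smad6 had 22.05 and 14.9 RPKM in siGcn5, against 4.34 and 2.57 RPKM in siControl (log2 2.13, adjusted p = 0.00018), and Id3, a BMP target, had 229 and 175 RPKM, against 81.5 and 53.97 RPKM (log2 1.58). The ligands Tgfb3 (log2 1.33) and Bmp4 (1.32) rose too. The falls, named after their values were seen, held the ligand Tgfb1 (log2 −0.71), the receptors Tgfbr1 (−0.41) and Tgfbr3 (−0.64) and Ltbp1 (−0.62), which stores latent TGF-beta in the matrix. The 15 fibroblast markers had 6 rises and 2 falls (median 0.13), with the PDGF receptor Pdgfrb at 31.9 and 24.95 RPKM in siGcn5 and 9.99 and 8.50 RPKM in siControl (log2 1.52) and Col1a1 at log2 0.86. Their summed level was 6015 and 5212 RPKM in siGcn5, against 4276 and 3817 RPKM in siControl. Some of these markers, Dcn and S100a4 among them, were already counted in the mesenchymal list, so this is not a separate result. Of all genes tested 31.4% rose and 24.9% fell.

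Genes of the reprogramming factors were lower in siGcn5, most in replicate 1. Pou5f1 (Oct4) had 137 and 200.2 RPKM in siGcn5 and 288 and 249 RPKM in siControl, Sox2 13.6 and 25.4 RPKM and 35.1 and 29.1 RPKM, Klf4 64.2 and 86.5 RPKM and 116 and 94.4 RPKM, and Myc 103 and 129 RPKM and 174 and 155 RPKM. In each gene replicate 1 of siGcn5 was the lowest of the 4 libraries, and replicate 2 lay between it and siControl. The 4 calls ended without siGcn5 replicate 1, at adjusted p = 0.051 for Pou5f1, 0.12 for Sox2, 0.19 for Klf4 and 0.26 for Myc; those of Sox2, Klf4 and Myc also ended without siControl replicate 1 (0.098, 0.15 and 0.19), and that of Myc without siControl replicate 2 (0.084). With the compared groups fitted alone Sox2 (0.054) and Klf4 (0.0501) were not called, and Myc was not with a pseudocount of 0.1 (0.055), no filter (0.094) or quantile normalization (0.052). Transcripts of the introduced and of the endogenous gene are summed in RPKM, and the part of these lower levels in the other differences was not tested.

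Of 35 pluripotency genes 10 were tested, and 2 of these rose and 5 fell (median −0.16). Dppa3 was listed at 0 in all 4 libraries. Another 25 members, Nanog, Esrrb, Zfp42 and Fgf4 among them, stayed under 1 RPKM in each of the 4. A listed 0 need not mean that a gene was silent, since Hmgcs1 of sterol synthesis and Taf1a of the RNA polymerase I machinery, which cells in general use, were also listed at 0 in these 4 libraries. The falls were Pou5f1, Sox2 and Klf4, L1td1 at 5.47 and 7.19 RPKM in siGcn5 and 9.99 and 9.83 RPKM in siControl (log2 −0.58), and Fgf4 (log2 −0.22), and the rises were Tbx3 (log2 0.46) and Alpl (0.36); Fgf4, Tbx3 and Alpl were named after their values were seen. The 5 falls were 2 without siControl replicate 1 and 1 without siGcn5 replicate 1. In the Myc network 1 of 11 genes rose, Mycl1 (log2 0.87), and 2 fell, Myc (log2 −0.51) and the Myc antagonist Mxi1 (−0.67), at a median of −0.0083.

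Of 25 tested genes of epithelial adhesion and identity, which reprogramming factors induce in fibroblasts, 7 rose and 7 fell with dox (median 0.038). Without dox 14 rose and 1 fell, Pkp1 (log2 −1.48), at a median of 0.37. The interaction was lower with dox for 10 genes and higher for 2, Crb3 (0.59) and Pkp1 (0.71), at a median of −0.38. The 10 were 5 without siControl replicate 2 or siGcn5 replicate 1 of the libraries without dox, 5 without siGcn5 replicate 1 with dox and 6 without siControl replicate 2 with dox. Pkp1 and Crb3 are given here after their values were seen. P-cadherin (Cdh3, log2 0.83) and plakoglobin (Jup, 0.78) rose, and the desmosomal protein Pkp1 (−0.77) and the small GTPase Rab25 (−0.62) fell. Of 14 keratins 4 rose and 5 fell (median −0.066). The rises were led by Krt20, at 11.9 and 11.7 RPKM in siGcn5 and 3.28 and 3.07 RPKM in siControl (log2 1.62, adjusted p = 2.5e-06), with Krt7 (1.50) and Krt18 (1.12), and the falls by Krt13 (−1.07). Krt17 also rose (log2 0.31) and Krt6b (−0.97), Krt6a (−0.62), Krt19 (−0.59) and Krt8 (−0.34) also fell, those not in the leading 4 being named after their values were seen. Without siControl replicate 1 and without siGcn5 replicate 1 the falls were 3 and 2.

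Of 24 genes of epidermal differentiation 3 rose and 12 fell (median −0.32), and the falls were 7 without siControl replicate 1. Slurp1, a secreted epidermal protein, had 38.7 and 63.1 RPKM in siGcn5, against 106 and 95.1 RPKM in siControl (log2 −1.01), the protease Klk7 was at log2 −1.01 and corneodesmosin (Cdsn) at −0.84, a call that ended without siControl replicate 1 (adjusted p = 0.10) or siGcn5 replicate 1 (0.087). Casp14, the caspase of cornification, rose to 3.43 and 2.86 RPKM in siGcn5, against 0.461 and 0.322 RPKM in siControl (log2 1.57). Its fellow rises Evpl (log2 0.68) and Ppl (0.59), named after their values were seen, encode plakins of the cornified envelope.

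Of 24 genes of the integrated stress response 14 rose and 2 fell (median 0.27). Ddit3 (CHOP) had 74.5 and 54.5 RPKM in siGcn5, against 16.3 and 15.9 RPKM in siControl (log2 1.92, adjusted p = 2.3e-05), Nupr1 had 302 and 278 RPKM, against 87.4 and 72.98 RPKM (log2 1.85), and Ppp1r15a (GADD34), which restores translation after stress, was at log2 1.52 and Trib3 at 1.40. The falls, named after their values were seen, were Aldh18a1 (log2 −0.97) and Hsp90b1 (−0.35). Of 23 AP-1 and immediate early genes 9 rose and 3 fell (median 0.17), but the rises were 2 without siGcn5 replicate 1 and 2 without siControl replicate 2. The falls, named after their values were seen, were Egr3 (log2 −0.46), Fosl1 (−0.51) and Ier2 (−0.61). Egr3 stayed under 1 RPKM in all 4 libraries. Dusp6, a phosphatase that shuts off ERK, was at log2 1.13 and the ligand Ereg at 0.69. The calls of Dusp1 (0.85) and Dusp4 (0.72) ended without siControl replicate 2 (adjusted p = 0.23 and 0.25) or siGcn5 replicate 1 (0.21 and 0.27).

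Calls in the metabolic lists went both ways, where 31.4% of all genes tested were called higher and 24.9% lower. Of 24 glycolysis genes 7 rose and 9 fell (median 0.11), with Aldoc at log2 0.95, Tpi1 at −0.76, Pgk1 at −0.68 and the lactate transporter Slc16a1 at −0.67, whose call ended without siControl replicate 2 (adjusted p = 0.15) or siGcn5 replicate 1 (0.21). The 9 falls were 6 without siControl replicate 2 and 5 without siGcn5 replicate 1. Of 38 respiratory chain genes 10 rose and 13 fell (median −0.016), and the falls were 8 without siGcn5 replicate 1. With median-ratio scaling 5 rose and 16 fell. Sdhb of complex II had 68.3 and 83.1 RPKM in siGcn5, against 128 and 128 RPKM in siControl (log2 −0.76), Cyc1 was at log2 −0.53, Uqcrc2 at −0.50 and Ndufa1 at 0.50. Of 24 genes of cholesterol synthesis and uptake 3 rose and 8 fell (median −0.33), the falls being 5 without siControl replicate 2 and 4 without siGcn5 replicate 1. Among the falls were Stard4, a sterol transfer protein (log2 −0.74), Fdft1, the squalene synthase (−0.72), and Dhcr7, which makes cholesterol in the last step of its synthesis (−0.72). Insig1 (log2 0.62) and Srebf1 (0.27) rose and were named after their values were seen. The call of Fdft1 ended without siControl replicate 2 (adjusted p = 0.094) or siGcn5 replicate 1 (0.12).

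Of 10 endothelial markers 5 were tested, of which Kdr (log2 0.67) and Emcn (0.35) rose and Egfl7 (−0.91) and Esam (−0.48) fell (median 0.10). Kdr was not called without siControl replicate 2 (adjusted p = 0.078) or siGcn5 replicate 1 (0.091), Emcn without siControl replicate 2 (0.081) or siGcn5 replicate 2 (0.068), and Esam without siControl replicate 1 (0.13) or siGcn5 replicate 2 (0.13). Over the list the summed level was 15.5 and 15.1 RPKM in siGcn5 and 15.9 and 15.3 RPKM in siControl, with Cldn5 listed at 0 in all 4 libraries and Pecam1, Cdh5, Tie1, Vwf and Emcn under 1 RPKM. Of 12 blood markers 5 were tested, 1 rose and Laptm5 (log2 −0.55) and Cd68 (−0.36) fell (median −0.22), and the sum was 10.2 and 11.6 RPKM in siGcn5 and 11.9 and 11.2 RPKM in siControl, with Cd3e listed at 0 and Ptprc and Csf1r under 1 RPKM. Cd68 was not called without siControl replicate 1 (adjusted p = 0.11) or siGcn5 replicate 1 (0.15). Itgam, an integrin of myeloid cells, had 1.93 and 1.99 RPKM in siGcn5, against 0.273 and 0.347 RPKM in siControl (log2 1.18). Of 10 skeletal muscle markers 3 were tested and 2 rose (median 0.88), desmin (Des, log2 1.32) and the actin Acta1 (0.88), while Myod1 and Myog stayed under 1 RPKM and the sum was 112 and 87.5 RPKM in siGcn5, against 63.6 and 43.4 RPKM in siControl.

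Of 9 neural markers in the files 3 were tested and all 3 fell (median −0.62), Nefl (log2 −1.05), Syt1 (−0.62) and Tubb3 (−0.39; adjusted p = 0.068 without siGcn5 replicate 1), at a sum of 111 and 127 RPKM in siGcn5 and 166 and 158 RPKM in siControl, and Snap25, Sox10 and Gfap were under 1 RPKM. Of 7 adipocyte markers 2 were tested and both rose (median 1.46), the fatty acid binding protein Fabp4 at 7.51 and 6.35 RPKM in siGcn5 and 0.809 and 0.689 RPKM in siControl (log2 2.18) and Pparg (log2 0.75). Lep was listed at 0 and Adipoq, Cidec, Plin1 and Retn were under 1 RPKM in all 4 libraries, and the sum was 19.7 and 15.7 RPKM in siGcn5, against 7.16 and 6.31 RPKM in siControl. Of 7 keratinocyte markers 4 were tested, none rose and Itgb4 fell (log2 −0.72; list median 0.083), at a sum of 375 and 434 RPKM in siGcn5 and 416 and 364 RPKM in siControl, with Trp63 under 1 RPKM. The part of these cell type genes in the other differences was not tested.

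**Figure D5:**
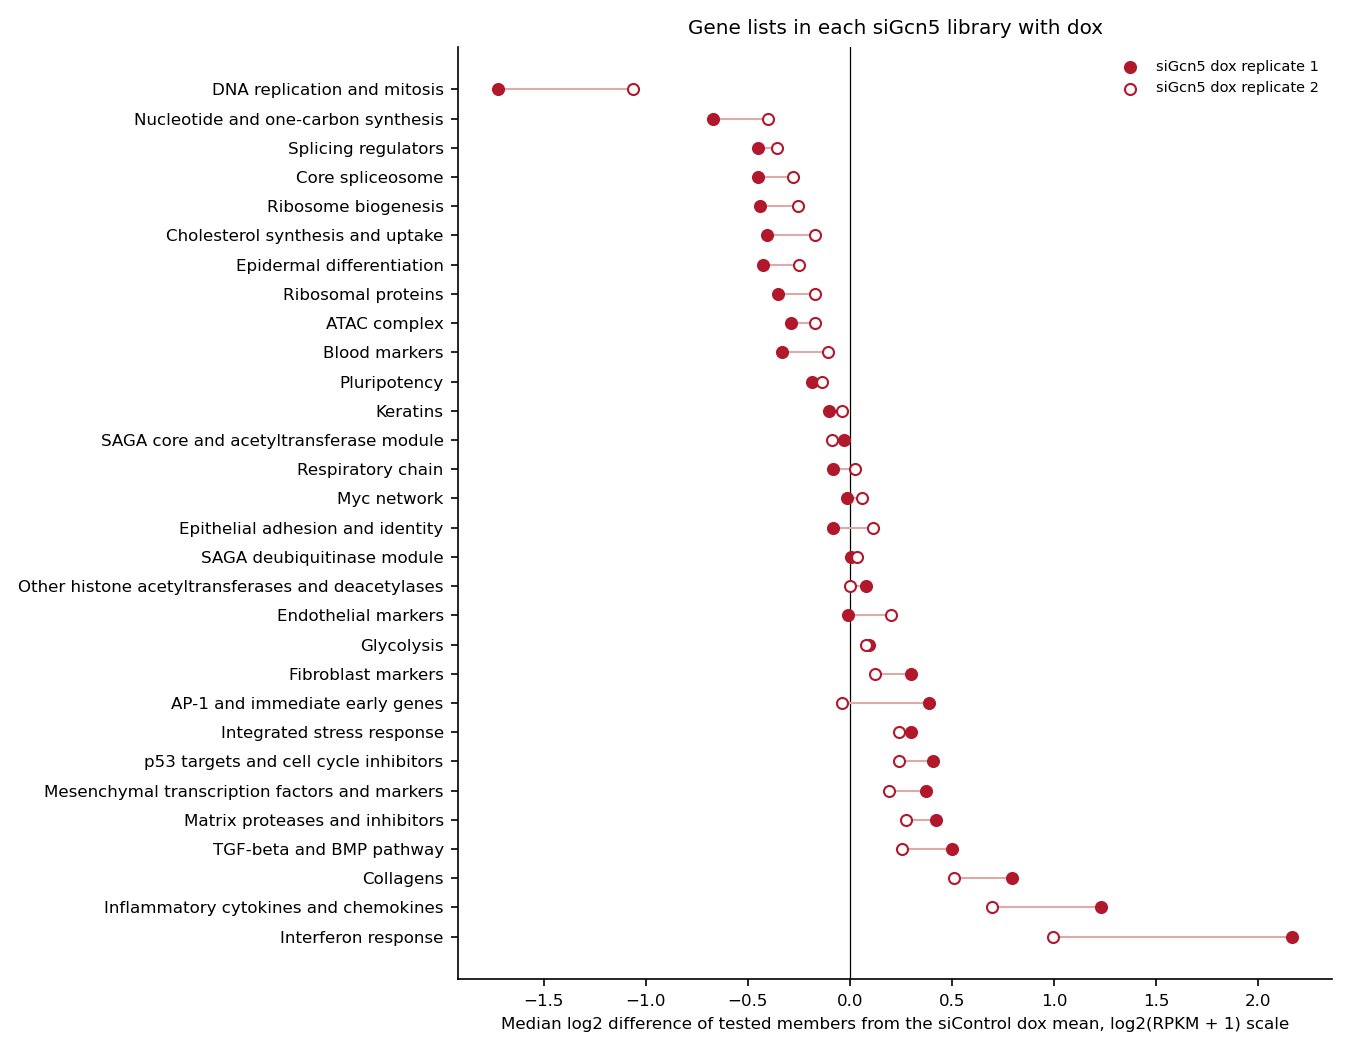
For each list with at least 5 tested members, the median log2 difference of its members from the siControl mean with dox in siGcn5 replicate 1 (filled) and replicate 2 (open), on the log2(RPKM + 1) scale. Replicate 1 lies further from 0 in most lists, widest for interferon response (2.17 and 0.99) and DNA replication and mitosis (−1.72 and −1.06), and AP-1 genes lie on either side of 0 at 0.39 and −0.037.

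In the siGcn5 libraries with dox the median log2 difference of inflammatory genes from the siControl mean was 1.23 in replicate 1 and 0.69 in replicate 2, that of collagens 0.80 and 0.51, that of splicing regulators −0.45 and −0.36 and that of ribosome biogenesis −0.44 and −0.25. Among lists with at least 5 tested members the medians differed in sign between replicates 1 and 2 for AP-1 genes (0.39 and −0.037), epithelial genes (−0.084 and 0.11), the respiratory chain (−0.083 and 0.023), the Myc network (−0.014 and 0.058) and endothelial markers (−0.0089 and 0.20). Kat2a was lower in replicate 1 (6.27 and 9.11 RPKM in replicates 1 and 2), and with 2 libraries a relation between its level and these sizes cannot be tested.

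Set against the effect of siGcn5 without dox, which shares no library with the one above, changes per gene correlated at Pearson r = 0.686 across the 13175 genes tested; genes are not independent replicates, and this is a description. Of the 4136 genes called higher with dox, 2849 were also called higher without dox, which is 68.9% of the genes higher with dox and 58.6% of those higher without. Of the 3276 called lower with dox, 1613 were also called lower without dox. That is 49.2% of the genes lower with dox and 60.0% of those lower without. Of all genes tested, 36.9% were called higher and 20.4% lower without dox, and 31.4% higher and 24.9% lower with dox. Calls in opposite directions were made for 153 of the genes higher with dox and 176 of those lower with dox.

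Libraries with and without dox may also differ in time since the siRNA, and the interaction cannot tell this from dox. Kat2a was also lower in siGcn5 without dox than with it, as given above. By the interaction test, the effect of siGcn5 differed between dox and no dox for 3409 genes, 1500 with the higher change with dox and 1909 with the lower one. The count fell to 1677 without siControl replicate 2 without dox, to 1917 without its replicate 1, to 1734 without siGcn5 replicate 1 without dox, to 1769 without siControl replicate 2 with dox and to 2232 without siGcn5 replicate 1 with dox. Mest, a paternally expressed imprinted gene, had the largest interaction of the named genes. With dox it had 29.1 and 39.5 RPKM in siGcn5 and 48.1 and 47.9 RPKM in siControl, and without dox 62.01 and 64.4 RPKM in siGcn5 and 7.93 and 9.06 RPKM in siControl (interaction log2 −3.25, adjusted p = 1.3e-05). The siGcn5 libraries were below siControl with dox and far above it without. Mir335 lies within Mest and had the same pattern (log2 −3.22). Krt8, a keratin of simple epithelia, had 87.7 and 110.4 RPKM in siGcn5 and 132 and 118 RPKM in siControl with dox, and 4.41 and 4.51 RPKM and 0.695 and 0.653 RPKM in the same order without dox (interaction log2 −2.04). It was lower in siGcn5 with dox, a call that ended without siControl replicate 1 (adjusted p = 0.12) or siGcn5 replicate 1 (0.18), and higher without dox. Akr1c18 (interaction log2 −2.23) and the melanocyte antigen Mlana (−2.00) were higher in siGcn5 both with and without dox, by more without it. With dox the call of Mlana ended without siControl replicate 1 (adjusted p = 0.099) or siGcn5 replicate 1 (0.14).

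In the opposite direction, Col6a1 was close in the 2 groups with dox, at 84.8 and 82.7 RPKM in siGcn5 and 98.97 and 91.3 RPKM in siControl, and apart without dox, at 33.6 and 49.8 RPKM in siGcn5 and 184 and 225 RPKM in siControl (interaction log2 2.10, adjusted p = 0.0014). Osteopontin (Spp1) had 244 and 232 RPKM in siGcn5 and 188 and 162 RPKM in siControl with dox, and 183 and 338 RPKM and 831 and 919 RPKM without it (log2 2.25). The transcript 4933402E13Rik had 6.13 and 5.67 RPKM in siGcn5 and 0.219 and 0.228 RPKM in siControl with dox, and stayed under 0.1 RPKM in all 4 libraries of these siRNAs without dox (log2 2.44). Prl2c4 and Prl2c3, whose copies cannot be told apart, were at log2 3.22 and 3.21.

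The siGcn5 libraries were also compared directly with the siMyc libraries, which share the dox and the time. With dox 65.9% of all genes differed between siGcn5 and siMyc, 38.6% higher in siGcn5 and 27.3% lower. Ribosome biogenesis separated the 2 siRNAs: 62 of 64 genes were higher in siGcn5 than in siMyc and none lower (median log2 1.33). Core spliceosome genes were higher in siGcn5 in 54 of 62 cases and lower in 1, Snrnp25 (median 0.59), ribosomal proteins in 49 of 54 and lower in 1, Rpl19 (median 0.79), and nucleotide and one-carbon genes in 28 of 37 and lower in 1, Adss (median 0.75). Dkc1 had 38.1 and 50.01 RPKM in siGcn5, 9.36 and 15.4 RPKM in siMyc and 64.7 and 80.02 RPKM in siControl, with a log2 difference between siGcn5 and siMyc of 1.78 (adjusted p = 2.4e-05). Shmt1 had 23.4 and 37.9 RPKM in siGcn5, 3.64 and 7.61 RPKM in siMyc and 59.96 and 66.1 RPKM in siControl, with a log2 difference between siGcn5 and siMyc of 2.28 (adjusted p = 3.2e-05).

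Fewer genes of DNA replication and mitosis were called between the 2 siRNAs, which does not show that their levels were equal. Of 53 members 8 were higher in siGcn5 than in siMyc and 1, Gins2, lower (median log2 0.085), counts that became 22 and 1 without siGcn5 replicate 1 and 3 and 12 without siGcn5 replicate 2. Plk1 had 10.4 and 21.1 RPKM in siGcn5 and 12.9 and 16.9 RPKM in siMyc, so the siMyc libraries lay between the 2 siGcn5 libraries (log2 0.0062, SE 0.33, adjusted p = 0.99). Interferon genes were higher in siGcn5 than in siMyc in 8 of 35 cases and lower in 2, Oas2 and Zbp1 (median 0.49). Both were smaller shares than over all genes, where 38.6% were higher and 27.3% lower. The list's median rested on the library kept, at 0.93 without siGcn5 replicate 2 and −0.047 without siGcn5 replicate 1. Collagens were lower in siGcn5 than in siMyc in 11 of 20 cases and higher in 2, Col12a1 and Col18a1 (median −0.55). These single members were named after their values were seen.

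Col10a1 had the largest excess in siGcn5 over siMyc, with 86.5 and 71.01 RPKM in siGcn5, against 2.67 and 2.40 RPKM in siMyc (log2 4.49, adjusted p = 2.3e-09), and osteoglycin (Ogn) had 32.1 and 22.6 RPKM, against 1.53 and 2.19 RPKM (log2 3.30). Il1rn (log2 3.20), Car12, a carbonic anhydrase (3.37), and Got1l1 (2.79) were the other leading genes higher in siGcn5. Lower in siGcn5 were the osteocalcin copies Bglap2 (log2 −4.42) and Bglap (−4.09), whose counts are uncertain because the copies are near-identical. Cdsn had 2.79 and 3.18 RPKM in siGcn5, 77.03 and 71.2 RPKM in siMyc and 6.91 and 5.45 RPKM in siControl (log2 −4.24 against siMyc), and 4732456N10Rik (log2 −4.58) and Nkain4 (−3.96) were lower in siGcn5 too.

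By the RefSeq class of each gene, 398 lncRNA genes had 119 rises and 72 falls in siGcn5 with dox (median log2 0.087), 287 miRNA genes 54 and 56 (median −0.010) and 106 snoRNA genes 10 and 51 (median −0.27). Of all genes tested 31.4% rose and 24.9% fell (median 0.051), so the rises among lncRNA genes were near the share of all genes. Most snoRNA and miRNA genes lie inside other genes, so their values can hold reads of the host transcript.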

How the data were processed

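Total RNA of 12 libraries, 2 in each of 6 groups, was depleted of ribosomal RNA and sequenced from stranded libraries on an Illumina instrument, per the labels' protocols. The authors deposited 1 RPKM value per gene symbol (23284) and library. Per the submitters' processing notes, reads were handled with Bowtie 0.12.8 and TopHat2 2.0.9 on mm9, and affy, edgeR and HTSeq are also named, without their roles. The annotation and whether counting used strand were not given in the sources used. RPKM divides by the library total, so a change in RNA per cell is not measured. Whole reads were recovered from the RPKM steps for all 20788 genes with a value (tolerance 0.05 read; 2496 symbols were at 0 everywhere).

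The fit took the 13175 genes for which 2 or more of the 12 libraries reached 1 RPKM, and used limma 3.58.1 in R 4.3.3 (intensity trend, log2(RPKM + 1), pseudocount 1, 1 term per group, 6 residual and 4.17 prior degrees of freedom). The pseudocount understates the change of low genes. In the main comparison limma's voom on the recovered reads called 7352 genes, and limma on the compared groups alone called 5872. The limma fit was also run on simulated reads with few changed genes and the same spread in every group. These data differ in both respects, so that run does not gauge the calls made here. The 34 gene lists (936 members, 931 found, 825 tested) and the libraries compared were chosen with earlier results of these data known. Named genes are Kat2a, Kat2b, Myc, Pou5f1, Sox2 and Klf4, among called genes with no overlap between groups and a mean of at least 2 RPKM in the higher group the 15 that rose most and the 15 that fell most, up to 4 leading called members of each list, all SAGA and ATAC members, and, by the same criteria, 5 genes each way for the interaction (where the differences between libraries with dox and without dox must not overlap) and for siGcn5 against siMyc. Other names are marked as chosen after their values were seen. Replicate numbers come from the labels, which do not say that they pair libraries. Alternatives were another pseudocount (0.1), no filter, a mean of at least 5 RPKM, 2 scalings, the compared groups alone, no trend, a replicate block, voom and leaving out each library. RefSeq promoter windows matched 10088 of the 13175 genes tested, too few for shares over all of them. Some genes that the rule names are not reported here.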

Additional observations from a re-analysis of the deposited data

Results flagged for a closer look

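The effect of siGcn5 differed between dox and no dox, by limma's test of the interaction at adjusted p under 0.05, for 3409 genes. Dox and time since the siRNA cannot be told apart by that test. The 10 named genes flagged by that test, each as the log2 change with dox minus the log2 change without dox, were Prl2c4 (3.22), Prl2c3 (3.21), 4933402E13Rik (2.44), Spp1 (2.25) and Col6a1 (2.10), with the higher change with dox, and Mest (−3.25), Mir335 (−3.22), Akr1c18 (−2.23), Krt8 (−2.04) and Mlana (−2.00), with the lower one. Mir335 lies in Mest, and Prl2c3 and Prl2c4 are near-identical, so these are 8 separate signals at most. No group holds 4 or more libraries, so no group was searched for a library far from the others.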

How the results depend on the processing

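Counts of genes called were 7412 for siGcn5 against siControl with dox, 7554 without dox and 8687 for siGcn5 against siMyc. They stayed within 1.5 times under every alternative run, the first at 5129 to 8381. The number of genes tested also changed: 5129 of 8748 were called with a mean of at least 5 RPKM, and 8047 of 20788 with no filter. The count for the interaction (3409) ran from 1677 to 3960 with 1 library left out. Same-numbered libraries of 2 groups deviated together at r = 0.093 to 0.489 over 15 pairs of groups, and 2 numbers do not establish a pairing; with the replicate block the counts were 8381, 8489, 9490 and, for the interaction, 5061. Over named genes and alternatives in the main comparison, 2198 values kept their direction and side of the threshold, 74 lost the call, 12 gained it and 23 changed sign; the sign changes were in genes not called. With median-ratio scaling these were Tada2b (log2 −0.041), Ccdc101 (−0.049), Supt7l (−0.014), Eny2 (−0.057), Atxn7l3 (−0.030), Usp27x (−0.045) and Dr1 (−0.014), and with quantile normalization Tada2b (−0.021), Taf9b (−0.012), Atxn7 (−0.0086) and Usp27x (−0.11). With 1 library left out Tada1 ran from −0.093 to 0.038, Taf9b from −0.098 to 0.33, Taf12 from −0.12 to 0.013, Eny2 from −0.026 to 0.13, Atxn7 from −0.060 to 0.26, Zzz3 from −0.098 to 0.0056, Mbip from −0.015 to 0.26, Dr1 from −0.021 to 0.21 and Nkain4 from −0.27 to 0.12. The cause was not tested. Of the counts of list members 404 stayed within 1.5 times and 38 did not. With 2 libraries a group, a difference in 1 library weighs on its group's mean, and the siGcn5 libraries with dox are the least alike.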
